A study of Homo sapiens with 14 samples.

Results

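The genes described are 10 writers, partners and erasers of repressive chromatin marks: EZH1, EZH2, EED, SUZ12, JARID2, KDM6B, DNMT1, DNMT3A, DNMT3B and UHRF1. They were chosen by name, and all 10 were found among the 20049 genes of a count table for 14 human neuroblastoma lines. Neuroblastoma is a childhood tumour of the sympathetic nervous system, and the series deals with telomere damage and immune recognition of such tumours. The lines were IMR5-75, IMR32, SH-SY5Y, SK-N-SH, SK-N-AS, SK-N-FI, SK-N-DZ, SK-N-BE(2)C, NGP, NBL-S, LS, Lan-6, GI-ME-N and CLB-GA, each an established culture with no treatment in the labels, grown in RPMI or DMEM with fetal bovine serum, with no antibiotics and negative mycoplasma tests. IMR5-75 was derived from IMR32 and SH-SY5Y from SK-N-SH, which is background knowledge and not in the labels. The labels put all lines in 1 group, with 1 total RNA library per line, so no difference between single lines can be set against replicates.

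Polycomb repressive complex PRC2 places the methyl marks on histone H3 known as H3K27me, with EZH1 or EZH2 as the catalytic subunit and EED and SUZ12 as its core partners. JARID2 is a cofactor that helps bring PRC2 to its target genes, and KDM6B removes the same mark. DNMT3A and DNMT3B set DNA methylation on new sites, DNMT1 copies it to the new strand after replication, and UHRF1 brings DNMT1 to hemimethylated DNA. EZH2 is studied in neuroblastoma as a repressor of neuronal differentiation genes.

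Lan-6 had the smallest library, with 35856642 counts, and LS the largest, with 58644013. Levels are CPM, counts relative to the library total after TMM scaling. A smooth trend of log2 levels relative to the mean of all lines with GC content and transcript length had an R2 of 0.291 in Lan-6 and at most 0.0663 in any other library, so many results are also given with that trend removed. Adrenergic markers, the transcription factors and enzymes of sympathetic neuroblasts, summed to 335 CPM in SK-N-SH, 466 CPM in GI-ME-N and between 1588 and 21598 CPM elsewhere, and 1 of the 12 was at 0 in SK-N-SH. Mesenchymal markers were instead highest in these lines, GI-ME-N having 32784 CPM and SK-N-SH 17686 CPM, against 154 to 2359 CPM elsewhere. The 6 leukocyte markers summed to between 4.62 and 47.8 CPM except in SK-N-AS at 487 CPM, where 469.6 CPM came from PTPRC, and the T cell marker CD3E stayed at or below 0.0683 CPM in all 14. Fibroblast markers, mostly collagens, were highest in SK-N-SH (14372 CPM) and GI-ME-N (11905 CPM), endothelial markers summed to at most 10.6 CPM and Schwann cell markers to at most 19.3 CPM. In RNA from a whole culture, fewer cells with a transcript and less of it per cell cannot be told apart.

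All 10 genes were detected in every line. The lowest count of any of them was 243, for DNMT3B in Lan-6, at 8.24 CPM (exact Poisson 95% interval 7.23 to 9.34 CPM, counting error only). The SD of log2 CPM over the 14 lines ran from 0.43 for DNMT1 to 0.86 for JARID2, with a median of 0.64 over the 10 genes and 0.72 over the 12529 genes that averaged at least 5 CPM. DNMT1 was thus among the steadier genes, as 11.1% of the 12529 had a lower SD, while 61.5% had a lower SD than JARID2. SK-N-DZ lay above the 14-line median for 9 of the 10 genes (8 in the authors' deposited log2 values). It was the highest line for 4, and for 3 with the trend removed and in the deposited values. SK-N-BE(2)C, Lan-6 and SK-N-SH lay above the median for 2 each, and Lan-6 was the lowest line for 3. Of all genes, 52% lay above their own 14-line mean, rather than median, in SK-N-DZ. These shares were 50.2% in SK-N-BE(2)C, 47% in Lan-6 and 47.8% in SK-N-SH. How often each line was the highest or lowest over all genes was not counted, so those counts have no background. Lan-6 was also the lowest line for KDM6A, ASXL1 and ASXL2, named below, though not for BAP1. In 2 of the 10 genes, EZH1 and UHRF1, the highest line stood at least 1.5-fold above the next, which was so for 28.1% of the 12529 genes.

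**Figure D1:**
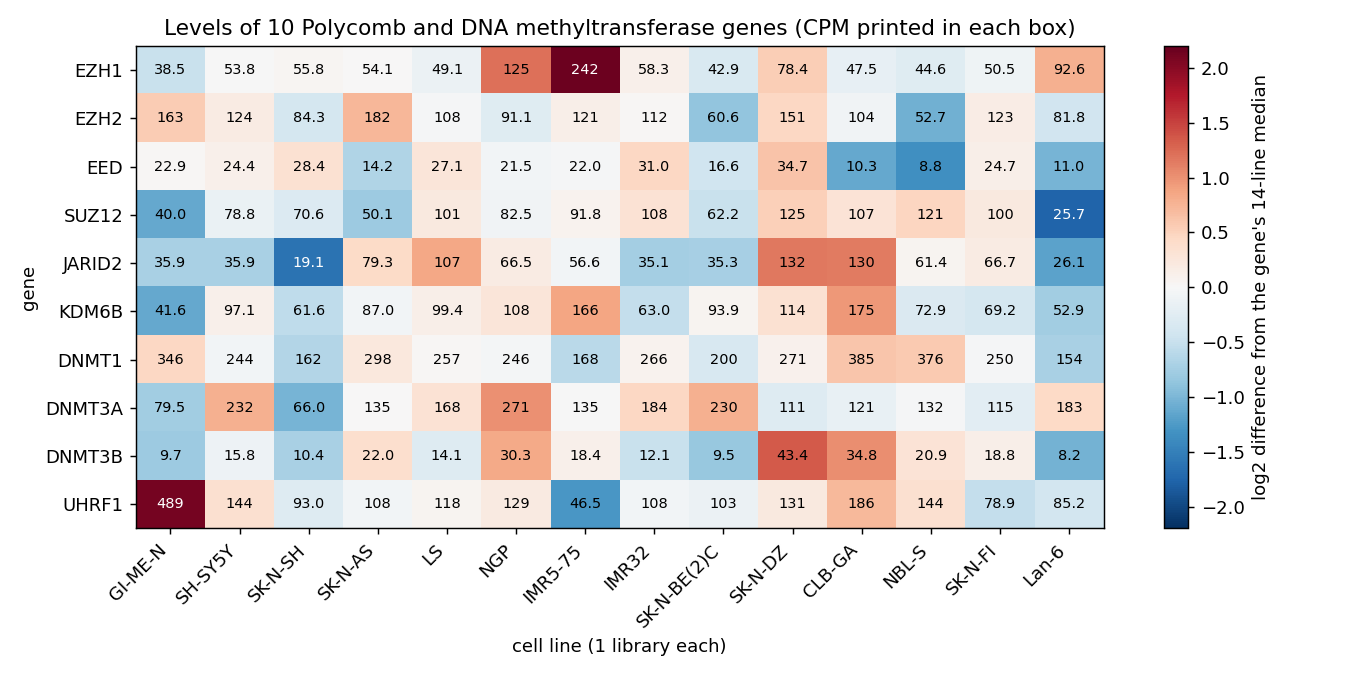
Level of each gene (down the page) in each of 14 neuroblastoma lines (across), 1 library per line; the printed value is CPM and the colour is log2 CPM relative to the gene's 14-line median. EZH1 in IMR5-75 (242 CPM) and UHRF1 in GI-ME-N (489 CPM) stand out as single high values.

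The start regions of these genes were searched for E2F words, since E2F factors drive many genes of DNA replication. The words TTTCCCGC, TTTCGCGC, TTTGCCGC and TTTGGCGC were looked for on both strands in RefSeq windows from 250 bases before to 50 bases after each listed start (GRCh38.p14), and all 10 genes had a window. Such a word stood in 6 of 20 windows, those of EZH1, EZH2, SUZ12, DNMT1 and UHRF1, against 3.31% of all 35116 windows. By gene, 5 of the 10 held one, against 5.73% of the 13232 measured genes with a window. Each word contains CG, and the windows with a word had 67% to 76% GC. The windows compared were not matched for GC content, and its part in these shares was not tested. The E-box CACGTG, a word bound by MYC family factors, was found in windows of DNMT3A alone among the 10, against 11.7% of measured genes. A matching word is a description of the sequence and not a measured binding site. The windows were unevenly spread, and DNMT3A alone had 6. The stretches around each E2F word are shown because the genes with and without a word are set beside the proliferation level further on. They are given in the direction of the gene, with the word, or its reverse complement, in capitals.
EZH1, chr17:42745118-42745185, minus strand: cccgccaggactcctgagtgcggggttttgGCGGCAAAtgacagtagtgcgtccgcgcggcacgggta
EZH2, chr7:148884267-148884320, minus strand: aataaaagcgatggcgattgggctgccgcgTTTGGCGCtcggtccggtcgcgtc
SUZ12, chr17:31936788-31936855, plus strand: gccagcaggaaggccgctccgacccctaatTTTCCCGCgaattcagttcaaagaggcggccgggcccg
DNMT1, chr19:10194929-10194985, minus strand: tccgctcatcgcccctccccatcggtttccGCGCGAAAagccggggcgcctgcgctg
UHRF1, first window, chr19:4909457-4909524, plus strand: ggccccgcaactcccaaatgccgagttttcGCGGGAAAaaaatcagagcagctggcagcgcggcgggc
UHRF1, second window, chr19:4909954-4910021, plus strand: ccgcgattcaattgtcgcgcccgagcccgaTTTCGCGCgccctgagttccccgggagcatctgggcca
The word began 2 bases before the listed start in DNMT1, 14 and 160 bases before it in the 2 UHRF1 windows, 115 bases before it in EZH1 and 189 in SUZ12. In EZH2 it lay just after the start.

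EZH2 (chr7:148807383-148884321, minus strand, GENCODE 29 on GRCh38), the catalytic subunit of dividing cells, was expressed in all lines between 52.7 CPM in NBL-S and 182 CPM in SK-N-AS, with a median of 110.2 CPM. SK-N-BE(2)C followed NBL-S at the low end with 60.6 CPM, and GI-ME-N followed SK-N-AS at the high end with 163 CPM. The highest line was 3.46-fold above the lowest. Above SK-N-BE(2)C the next line was Lan-6 at 81.8 CPM, and above SH-SY5Y at 124 CPM the next was SK-N-DZ at 151 CPM. With the composition trend removed, NBL-S was still lowest (54.3 CPM) and SK-N-AS still highest (174 CPM).

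EZH1 (chr17:42700275-42745049, minus strand), the catalytic subunit that is retained in resting cells, had a few high lines. Its median was 54.0 CPM and its lowest value 38.5 CPM, in GI-ME-N. The highest were Lan-6 at 92.6, NGP at 125 and IMR5-75 at 242 CPM. IMR5-75 was 1.93-fold above NGP and 4.49-fold above the median.

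EED (chr11:86244544-86278813, plus strand), the subunit that reads the H3K27 mark, had a median of 22.5 CPM. It was lowest in NBL-S at 8.82, CLB-GA at 10.3 and Lan-6 at 11.02 CPM, and highest in SK-N-DZ at 34.7 CPM. SK-N-AS followed at the low end with 14.2 CPM, and the other 10 lines lay between 16.6 and 34.7 CPM. In the authors' deposited log2 values SK-N-SH (9.778) was the highest line, just above SK-N-DZ (9.767).

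SUZ12 (chr17:31937018-32001045, plus strand), the scaffold of the complex, had a median of 87.2 CPM and ran from 25.7 CPM in Lan-6 to 125 CPM in SK-N-DZ. GI-ME-N (40.0 CPM) and SK-N-AS (50.1 CPM) were the next lowest. With the trend removed NBL-S (117 CPM) was above SK-N-DZ (115 CPM). The low value in Lan-6 is uncertain. The SUZ12 transcript has 38.0% GC, the lowest of the 10, and with the composition trend removed Lan-6 was at 49.5 CPM and GI-ME-N, at 44.6 CPM, was the lowest line. Reads of SUZ12 can also be shared with its near-identical copy SUZ12P1, which took 54.2% of their summed level in Lan-6 against 14.7% to 30.4% in the other 13 lines. Summed over both, Lan-6 (56.2 CPM), GI-ME-N (57.5 CPM) and SK-N-AS (62.2 CPM) were close together at the low end.

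JARID2 (chr6:15246296-15522040, plus strand) had the highest SD of log2 CPM of the 10, although UHRF1 had a wider span (10.52-fold). SK-N-SH had 19.1 CPM, with Lan-6 next at 26.1 CPM, and SK-N-DZ and CLB-GA had 132 and 129.9 CPM. The span of JARID2 was 6.91-fold, and 5.77-fold with the trend removed. Only LS, at 107 CPM, came near the highest pair.

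KDM6B (chr17:7839904-7854796, plus strand), the demethylase that opposes PRC2, was lowest in GI-ME-N at 41.6 CPM and highest in CLB-GA at 175 CPM, with IMR5-75 next at 166 CPM. Its transcript is the richest in GC of the 10, at 62.4%, and the order at the low end depended on composition. With the trend removed Lan-6 was lowest at 33.3 CPM, while GI-ME-N stood at 63.9 CPM. CLB-GA remained the highest line at 165 CPM.

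DNMT1 (chr19:10133345-10231286, minus strand), the maintenance methyltransferase, had the lowest SD of log2 CPM of the 10. Lan-6 (154 CPM) and SK-N-SH (162 CPM) were lowest and NBL-S (376 CPM) and CLB-GA (385 CPM) highest, a span of 2.50-fold. The highest line was instead GI-ME-N with the trend removed (399 CPM, with a span of 3.16-fold) and in the authors' deposited log2 values. The place of Lan-6 rests on the counts, because in the authors' deposited log2 values this line lay 0.14 above the median and SK-N-SH was lowest. The cause was not tested.

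UHRF1 (chr19:4903080-4962154, plus strand), the partner of DNMT1, had a single very high line. GI-ME-N had 489 CPM, 2.63-fold above CLB-GA at 186 CPM, and the lowest line was IMR5-75 at 46.5 CPM. The remaining 12 lines lay within 78.9 to 186 CPM. GI-ME-N stayed the highest at 508 CPM with the trend removed. It is also the line with the highest summed level of mesenchymal markers (32784 CPM). By the mean log2 level of these markers, each relative to its own mean, SK-N-SH was higher (6.03, against 4.78 in GI-ME-N). UHRF1 had 93.0 CPM in SK-N-SH. The part of these markers in the UHRF1 level was not tested.

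DNMT3A (chr2:25227855-25342590, minus strand) and DNMT3B (chr20:32762385-32809356, plus strand), the enzymes of new methylation, had different high lines. DNMT3A was highest in NGP at 271 CPM, followed by SH-SY5Y at 232 and SK-N-BE(2)C at 230.1 CPM, and lowest in SK-N-SH at 66.0 and GI-ME-N at 79.5 CPM. With the trend removed SH-SY5Y (232 CPM) lay above NGP (222 CPM), and GI-ME-N was at 109.9 CPM, above SK-N-DZ (98.4 CPM). DNMT3B was highest in SK-N-DZ at 43.4 and CLB-GA at 34.8 CPM, and lowest in Lan-6 at 8.24, SK-N-BE(2)C at 9.49 and GI-ME-N at 9.73 CPM. By CPM SK-N-BE(2)C was thus among the 3 highest lines for DNMT3A and the 3 lowest for DNMT3B. In the authors' deposited log2 values of DNMT3B, SK-N-SH (8.217), GI-ME-N (8.217) and Lan-6 (8.15) lay below SK-N-BE(2)C (8.26). The counting interval of DNMT3B in Lan-6 reached 9.34 CPM. None was computed for the other lines, so the order at the low end is not settled.

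Levels of different genes were compared per kb of transcript. The length was that of the longest protein-coding transcript of each gene, such as 9501 bases for DNMT3A. Which transcripts were expressed was not examined, so the order of genes and the ratios between them depend on this choice. By median over lines, DNMT1 (46.8 CPM per kb) and EZH2 (41.8) were the most abundant, followed by UHRF1 (26.3), SUZ12 (19.4), DNMT3A (14.2), KDM6B (13.5), EZH1 (11.7), JARID2 (10.2) and EED (10.1). DNMT3B was far below the others at 3.94 CPM per kb, and was the lowest of the 10 in 12 lines. DNMT1 and EZH2 were each the highest gene in 6 lines, EZH1 in IMR5-75 and UHRF1 in GI-ME-N. With the trend removed DNMT1 was highest in 8 lines and EZH2 in 4. Neighbours in this order from DNMT3A to EED overlap widely over lines.

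**Figure D2:**
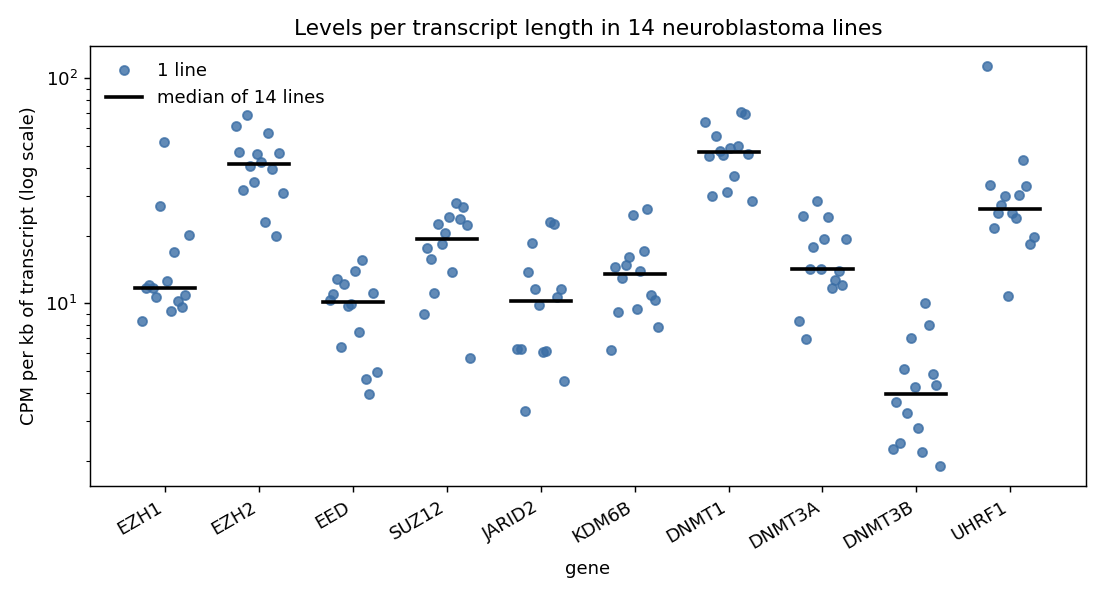
Level per kb of transcript (log scale) of each gene, with 1 point per line and a bar at the median of 14 lines. DNMT3B has the lowest median (3.94 CPM per kb) and DNMT1 the highest (46.8), and single high points mark EZH1 in IMR5-75 and UHRF1 in GI-ME-N.

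Within PRC2 the levels per kb ranked in the order EZH2, SUZ12, EED in 12 of 14 lines, and in 13 with the trend removed. In GI-ME-N EED lay above SUZ12, and in NBL-S SUZ12 lay above EZH2. EZH2 exceeded EZH1 per kb in 13 lines, by up to 7.41-fold in GI-ME-N, and the ratio was 0.876 in IMR5-75. EZH2 exceeded KDM6B in all lines, from 1.51-fold in CLB-GA to 9.95-fold in GI-ME-N. With the trend removed the highest ratio was in Lan-6 at 7.04 (3.93 before), above GI-ME-N at 5.09. DNMT3A exceeded DNMT3B in all 14 lines, from 1.16-fold in SK-N-DZ to 11.1-fold in SK-N-BE(2)C. With the trend removed these were 1.02 and 10.03, and Lan-6 was highest at 13.3. DNMT1 exceeded UHRF1 in 13 lines, by up to 2.88-fold in IMR5-75, and the ratio was 0.563 in GI-ME-N.

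Relations between the 10 genes were described over 12 lines, leaving out IMR5-75 and SH-SY5Y because each shares its origin with another line. The points share 1 library each, its depth and its base composition, so no p is given. Of 45 pairs, 3 had a Pearson r of at least 0.7, and these join JARID2, KDM6B and DNMT3B. JARID2 and DNMT3B had r = 0.84 (Spearman rho 0.82), JARID2 and KDM6B 0.77, and KDM6B and DNMT3B 0.75. All 3 stayed at 0.6 or above in each alternative tried, but only JARID2 with DNMT3B stayed at 0.7 or above. Over all 14 lines JARID2 with KDM6B was 0.65 and KDM6B with DNMT3B 0.68. The latter was 0.66 without GI-ME-N and Lan-6. JARID2 with DNMT3B ran from 0.80 to 0.93 as single lines were left out. For JARID2 and for KDM6B, 2 other members reached 0.7, against 2.05% of all genes with each, and for DNMT3B 2 members did, against 1.44%. The other 7 genes each had 0 members at 0.7 or above, against 0.415% of genes for EZH1, 0.311% for EZH2, 0.583% for EED, 5.87% for SUZ12, 1.41% for DNMT1, 1.68% for DNMT3A and 1.17% for UHRF1.

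**Figure D3:**
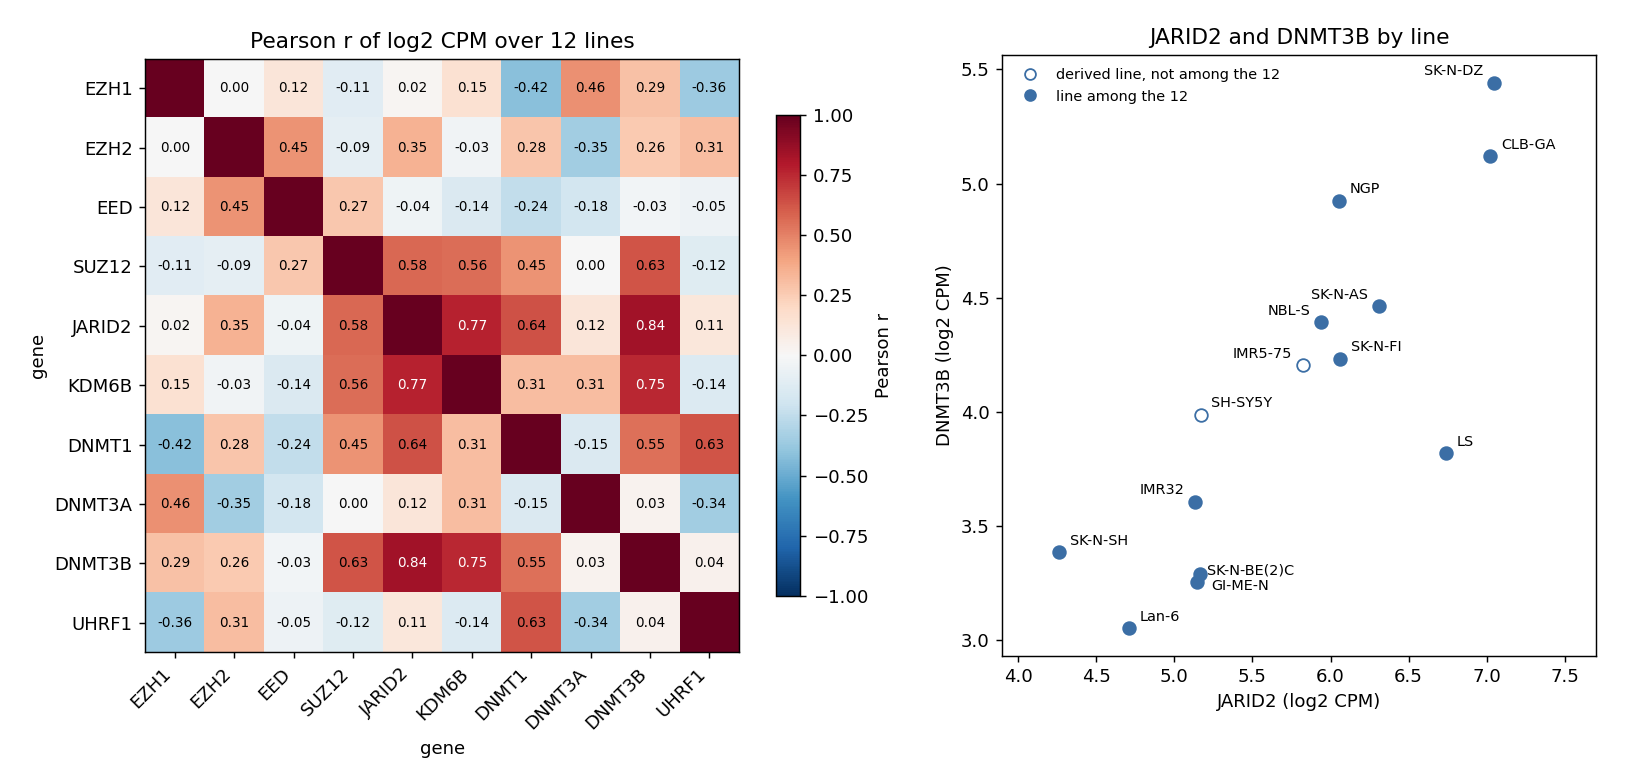
Left, Pearson r of log2 CPM for each pair of the 10 genes over 12 lines; right, JARID2 against DNMT3B in each line (log2 CPM), with the derived lines as open circles. The points run from SK-N-SH, lowest for JARID2, and Lan-6, lowest for DNMT3B, to SK-N-DZ at the high end of both, with r = 0.84 over the filled points.

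The core subunits of PRC2 did not form such a group. EZH2 and EED had r = 0.45, EZH2 and SUZ12 -0.09, and EED and SUZ12 0.27. The last became 0.84 without NBL-S and CLB-GA, the 2 lines farthest from the median of EED. It was 0.11 without GI-ME-N and Lan-6, 0.023 without Lan-6 alone and 0.27 with the trend removed. EZH1 and EZH2, the alternative catalytic subunits, had r = -0.0048, and DNMT3A and DNMT3B had 0.03 (0.20 and -0.23 with the trend removed). DNMT1 and its partner UHRF1 had r = 0.63 (rho 0.80), which was 0.73 with the trend removed. The 45 values had a median of 0.12, 18 were below 0, and the lowest was -0.42 for EZH1 with DNMT1. JARID2 with DNMT1 (0.64) rested on SK-N-SH and Lan-6, without which it was 0.26.

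For each gene the 3 genes with the most similar log2 CPM over the 12 lines were named, among the 12529. They are the highest of very many values of r over few lines, and high values can arise this way between unrelated genes. They are a description only, and shared control was not tested. DNMT1 was most like E2F8, an atypical E2F factor (r = 0.94, and 0.93 with the trend removed), PDSS1, an enzyme of coenzyme Q synthesis (0.93), and CLSPN, a replication checkpoint adaptor (0.89). EZH2 was most like CHAF1B, a subunit of the histone chaperone that works behind the replication fork (0.83), NAA40, an N-terminal acetyltransferase (0.82), and CDK2, a cell cycle kinase (0.82). For UHRF1 the first was KHSRP, an RNA-binding protein (0.92, but 0.56 without GI-ME-N and CLB-GA), then HNRNPUL1, another RNA-binding protein (0.91), and HAPLN1, a matrix link protein (0.89, but 0.10 without these 2 lines).

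MFSD9, a member of a transporter family, was among the first 3 both of JARID2 (0.91) and of DNMT3B (0.92). JARID2 also had FAM53C (0.93) and MDC1, a DNA damage adaptor (0.91), and DNMT3B had HIC2, a zinc finger factor (0.92), and EDNRB, the endothelin receptor B (0.91). KDM6B was most like MAML3, a Notch coactivator (0.90), SENP7, a SUMO protease (0.89), and ZBTB10 (0.88), the last 2 of which were at 0.47 and 0.25 with the trend removed. SUZ12 was most like PHF10, a chromatin remodelling subunit, CAPN7 and NUP43, each at 0.94. DNMT3A was most like MSL2 (0.93), ZNF74 (0.89) and AC000093.1 (0.89), and EZH1 like PI4KAP1 (0.92), CLCN2, a chloride channel (0.90), and NT5M (0.89), the last 2 of which were at 0.55 and 0.58 with the trend removed. EED was most like TMEM126B, an assembly factor of mitochondrial complex I (0.94), C17orf58 (0.87) and POM121 (0.87). PI4KAP1 and POM121 have near-identical copies, so their counts are uncertain.

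TMEM126B lies on chromosome 11, as does EED, and levels of chromosomal neighbours were therefore set beside each gene. For EED, the median relative level of the 17 measured genes within 2 Mb on either side had r = 0.92 with EED itself over the 12 lines, a value above that of 98.7% of 11892 genes treated alike, whose median was 0.43. It was 0.92 also with the trend removed and 0.91 without NBL-S and CLB-GA, and 0.69 with a window of 5 Mb. In SK-N-DZ, where EED was highest by CPM, 14 of the 17 neighbours lay above their own 14-line mean, against 52% of all genes. In CLB-GA 16 of the 17 and in SK-N-AS 15 lay below it, against 48.3% and 49.6% of all genes, and 12 did in NBL-S and also in Lan-6, against 47.1% and 53%. Of the 3 nearest, HIKESHI, a nuclear import carrier, had 46.2 CPM in SK-N-DZ and 17.4 CPM in NBL-S, while AP003084.1 and CCDC81 were at or under 1.14 CPM in both lines. DNA copy number was not measured in these files.

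**Figure D4:**
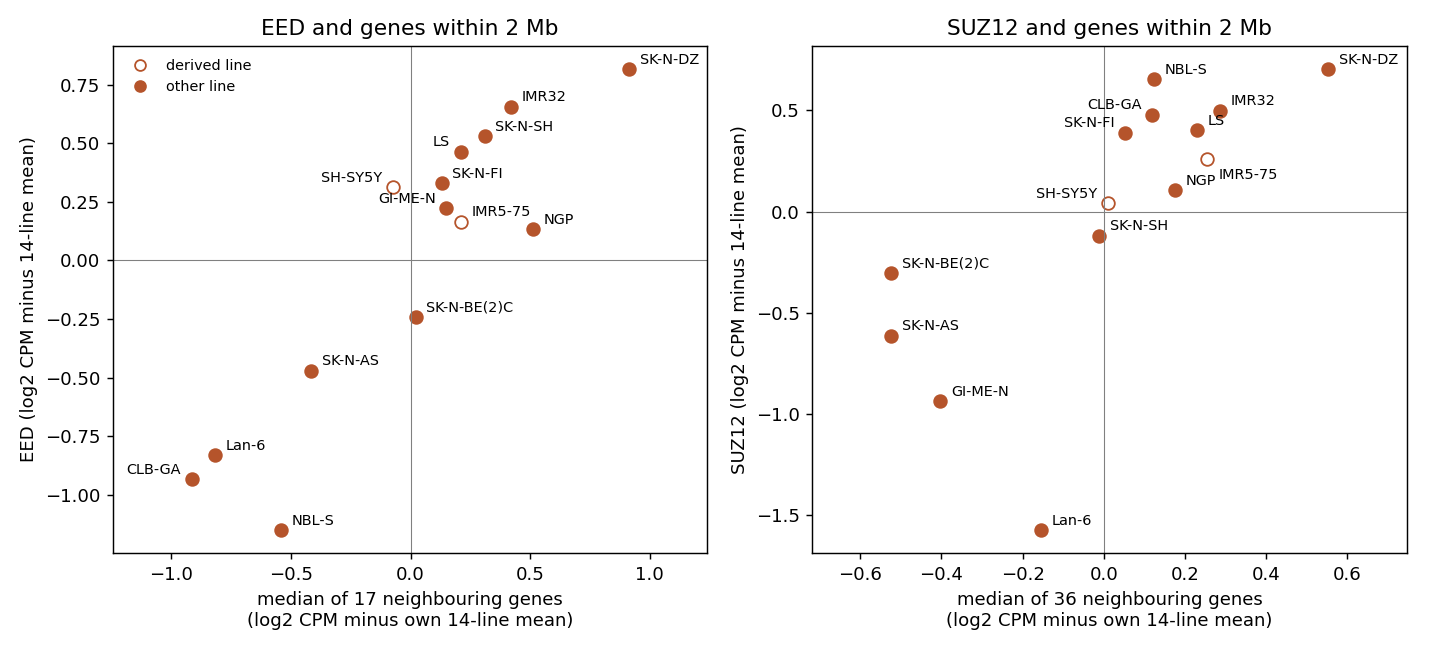
Level of EED (left) and SUZ12 (right) in each line against the median of the genes within 2 Mb, both as log2 CPM relative to the gene's own 14-line mean; derived lines are open circles. EED follows its 17 neighbours from CLB-GA, Lan-6 and NBL-S at the low end to SK-N-DZ, and SUZ12 in Lan-6 lies far below its 36 neighbours.

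For SUZ12 the same r was 0.73 over 36 neighbours (0.82 with the trend removed, 0.88 without Lan-6 and GI-ME-N), above that of 81.6% of genes. In SK-N-DZ, the highest line for SUZ12, 28 of the 36 lay above their own mean. The 3 nearest were LRRC37B, with 29.6 CPM in SK-N-DZ and 16.7 CPM in Lan-6, UTP6, a factor of ribosome assembly, with 88.8 and 72.6 CPM in these lines, and SH3GL1P1, which was lower in SK-N-DZ (7.696 CPM) than in Lan-6 (14.2 CPM). In Lan-6 and GI-ME-N, the lowest lines for SUZ12, 22 of the 36 neighbours lay below their own mean in each, against 53% and 53.4% of all genes. SK-N-AS, the next lowest line, had 30 below, against 49.6% of all genes, while the line after it, SK-N-BE(2)C, had 32, against 49.8%. For the other 8 genes r ran from -0.32 (DNMT1) to 0.44 (DNMT3A), and these values depended on composition and on the lines included. With the trend removed the 8 values ran from 0.02 (DNMT1) to 0.75 (UHRF1), with DNMT3A at 0.65 and KDM6B at 0.53 (-0.08 before). With the trend kept, UHRF1 had 0.29, which was -0.00056 without GI-ME-N and Lan-6 and -0.35 without GI-ME-N and CLB-GA. At least 3 in 4 neighbours shared the direction of the gene in its extreme line also for JARID2 and DNMT3B in SK-N-DZ (12 of 16 and 33 of 44 above) and for EZH2 in NBL-S (24 of 32 below), although over all lines their r was 0.18, -0.04 and 0.03 (0.21, 0.28 and 0.26 with the trend removed). Of the nearest to EZH2, CUL1, a ubiquitin ligase scaffold, had 38.1 CPM in NBL-S and 114 CPM in SK-N-AS, PDIA4 had 45.8 and 299 CPM, and ZNF786 had 7.25 and 11.1 CPM. Of the nearest to DNMT3B, MAPRE1, a microtubule end protein, had 331 CPM in SK-N-DZ and 138 CPM in Lan-6, whereas COMMD7 (35.8 and 60.3 CPM) and FO393400.1 (3.93 and 4.20 CPM) were not higher in SK-N-DZ. The nearest to JARID2 did not follow it either: DTNBP1 had 14.1 CPM in SK-N-DZ and 13.2 CPM in SK-N-SH, MYLIP 3.06 and 6.97 CPM, and GMPR 2.33 and 21.5 CPM.

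The derived lines were set beside their parents. EZH1 had 242 CPM in IMR5-75 and 58.3 CPM in IMR32, a ratio of 4.15, and KDM6B had 166 CPM in IMR5-75 and 63.0 CPM in IMR32, a ratio of 2.63. UHRF1 had 46.5 CPM in IMR5-75 and 108 CPM in IMR32, a ratio of 0.430, and DNMT1 had 168 CPM in IMR5-75 and 266 CPM in IMR32, a ratio of 0.633. The other 6 genes had ratios from 0.711 (EED) to 1.61 (JARID2). Thus 2 of the 10 were at least 2-fold higher in IMR5-75, against 12.9% of the 12529 genes, and 1 at least 2-fold lower, against 14.2%. The proliferation score described below was -0.71 in IMR5-75 and 0.38 in IMR32, and its part in these ratios was not tested.

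In the other pair DNMT3A had the highest ratio. It had 232 CPM in SH-SY5Y and 66.0 CPM in SK-N-SH, a ratio of 3.52 that was 2.77 with the trend removed and 4.20 in the authors' deposited log2 values. JARID2 had 35.9 CPM in SH-SY5Y and 19.1 CPM in SK-N-SH, a ratio of 1.88. Of the 10 genes, 1 was at least 2-fold higher in SH-SY5Y, against 15.4% of genes, and 0 were at least 2-fold lower, against 17.1%. The 2 lines differed in their markers, with adrenergic markers at 6465 CPM in SH-SY5Y and 335 CPM in SK-N-SH, and mesenchymal markers at 236 CPM in SH-SY5Y and 17686 CPM in SK-N-SH. The part of this difference in the ratios was not tested.

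Across the 12 lines, slopes of every gene were fitted on 4 levels with edgeR's quasi-likelihood test and Benjamini-Hochberg adjustment over all genes, and a gene was called at an adjusted p under 0.05. The levels were a proliferation score (mean of 12 cell cycle genes), MYCN, a mesenchymal-minus-adrenergic score and an antigen presentation score, each in SDs over the lines. These levels are related, with r = -0.61 between MYCN and the mesenchymal-minus-adrenergic score and 0.61 between the mesenchymal-minus-adrenergic and antigen presentation scores. None of the 10 genes was called on any level, as 0 of 10 passed in each. Of all genes, 0% were called on proliferation, 3.47% on MYCN (1.07% rising and 2.40% falling), 5.87% on the mesenchymal-minus-adrenergic score (3.40% rising and 2.47% falling) and 0% on antigen presentation. At an unadjusted p under 0.05, the proliferation score had 1318 genes (7.24%) and antigen presentation 2214 (12.2%), and DESeq2 called 317 (1.78%) and 1056 (5.80%), with 0 of the 10 among them.

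On the proliferation score 3 of the 10 had an unadjusted p under 0.05, against 7.24% of all genes. UHRF1 had a slope of 0.56 log2 per SD (SE 0.13, p = 0.00118, adjusted p = 0.358 by edgeR), which was 0.19 without GI-ME-N, the line highest in both. DNMT1 had a slope of 0.32 (SE 0.12, adjusted p = 0.566 by edgeR) and EZH2 one of 0.32 (SE 0.15, adjusted p = 0.675 by edgeR). These 3 are among the 5 genes with an E2F word at a start, and the other 2, SUZ12 and EZH1, had slopes of 0.26 (SE 0.22) and -0.21 (SE 0.17). Of the 5 without such a word in the windows searched, JARID2 had the second steepest slope of the 10 at 0.51 (SE 0.28). DNMT3B, whose outer start was not searched, had 0.36 (SE 0.28). The slopes were 0.18 (SE 0.21) for EED, 0.04 (SE 0.20) for KDM6B and -0.32 (SE 0.17) for DNMT3A. Genes with and without a word thus overlapped in slope. The median slope of the 10 was 0.29, against -0.01 over all genes.

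On MYCN, the transcription factor often amplified in neuroblastoma, DNMT3A had a slope of 0.39 log2 per SD (SE 0.15, adjusted p = 0.127 by edgeR) and SUZ12 one of 0.39 (SE 0.18, adjusted p = 0.197 by edgeR). They were the 2 of the 10 with an unadjusted p under 0.05, against 24.9% of all genes. The DNMT3A slope was 0.18 with the trend removed. EZH2 had a slope of -0.19 (SE 0.15) and DNMT1 one of 0.01 (SE 0.15). The level of MYCN itself ran from -1.22 in SK-N-SH to 11.13 log2 CPM in SK-N-BE(2)C.

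On the mesenchymal-minus-adrenergic score, DNMT3A had a slope of -0.39 (SE 0.17, adjusted p = 0.223 by edgeR) and UHRF1 one of 0.40 (SE 0.18, adjusted p = 0.240 by edgeR). These were again 2 of 10 at an unadjusted p under 0.05, against 20.0% of all genes. The DNMT3A slope was -0.24 without SK-N-SH (adjusted p = 0.596 by edgeR) and -0.19 with the trend removed. The UHRF1 slope rested on GI-ME-N and was -0.14 without it. On antigen presentation 0 of the 10 reached an unadjusted p under 0.05, against 12.2% of all genes. There 8 of the 10 slopes were negative, with a median of -0.24 against 0.01 over all genes, and the steepest were JARID2 at -0.47 (SE 0.24) and DNMT3B at -0.45 (SE 0.22).

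**Figure D5:**
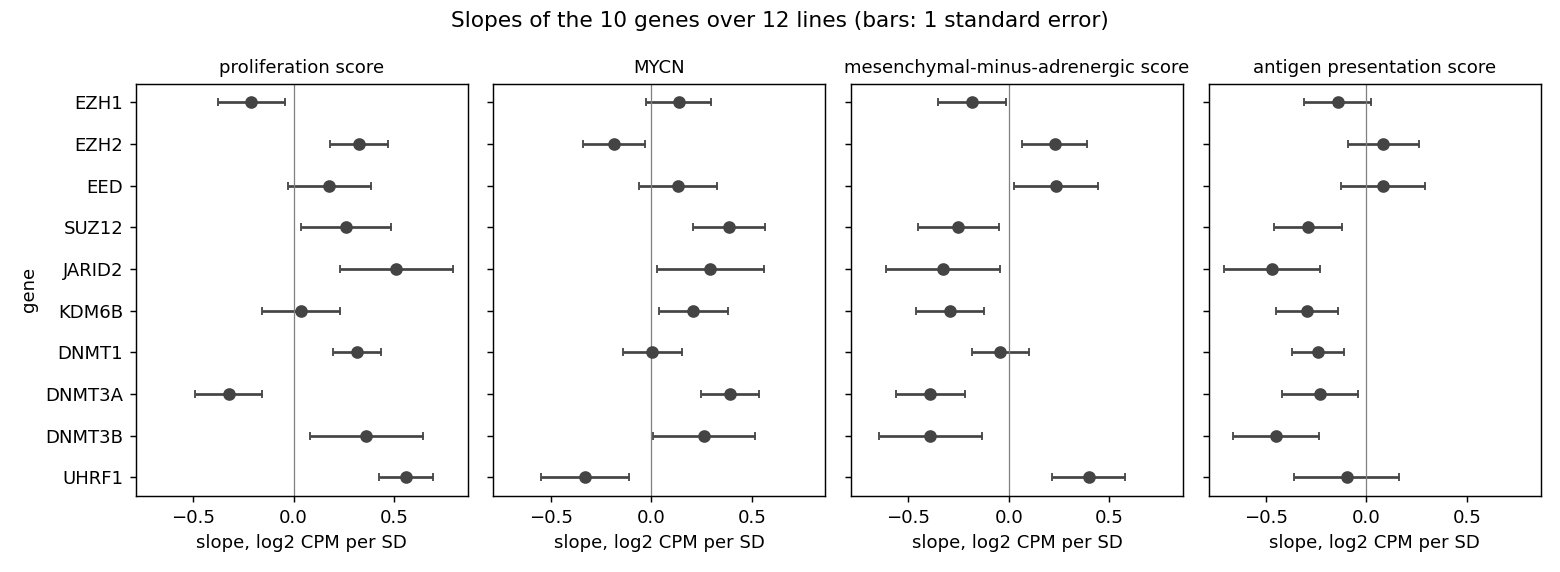
Slope of each gene over 12 lines on 4 levels, in log2 CPM per SD of the level, with bars of 1 standard error. None of the 10 passed an adjusted p of 0.05, and the steepest slope is that of UHRF1 on the proliferation score (0.56).

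Other genes of the same pathways were counted in the same fits. Of 8 genes listed for accessory subunits of PRC2, 1 was called, LCOR. The PRC2 partner is only one of the products of this locus, and counts per gene do not show which product they come from. LCOR ran from 32.6 CPM in Lan-6 to 162 CPM in IMR5-75 (55.5 to 119 CPM over all lines with the trend removed) and rose with MYCN by 0.55 log2 per SD (SE 0.13, adjusted p = 0.0450 by edgeR). The slope was 0.50 to 0.59 with each line left out in turn, with adjusted p from 0.0387 to 0.108 by edgeR, and the call held in the fits without CLB-GA, Lan-6 or SK-N-AS but in no other of these. The slope was 0.20 with the trend removed (adjusted p = 0.199 by edgeR). In the same fit 3 of 12 mesenchymal and 2 of 6 fibroblast markers were called falling, and their part in the slope of LCOR was not tested. The median slope of the 8 on MYCN was -0.30, against -0.01 over all genes. EZHIP, an inhibitor of PRC2 and named after its values were seen, was at or below 0.873 CPM in all lines and at 0 in 6.

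Of 20 subunits of PRC1, the complex that marks histone H2A and acts beside PRC2, 0 were called on any level, and their median slopes lay between -0.12 and 0.16. The widest ranges were those of CBX7, a reader of the H3K27 mark (lowest in IMR32 at 0.973 CPM, highest in Lan-6 at 27.9 CPM, and no line above 16.2 CPM with the trend removed), KDM2B, which binds unmethylated CpG islands (SK-N-SH 42.6 CPM, NGP 843 CPM), PCGF5 (IMR32 7.24 CPM, SK-N-FI 125 CPM) and BCOR (GI-ME-N 18.4 CPM, SK-N-DZ 152 CPM). KDM2B in NGP stood alone, as the next line, SK-N-DZ, had 104 CPM. Of 4 genes that remove the PRC2 or PRC1 marks or help to, 0 were called. KDM6A, the second H3K27 demethylase, ran from 9.29 CPM in Lan-6 to 50.1 CPM in SK-N-AS (no line below 15.1 CPM with the trend removed), BAP1 from 41.4 CPM in NGP to 152 CPM in IMR32, ASXL2 from 29.5 CPM in Lan-6 to 82.5 CPM in NGP and ASXL1 from 137 CPM in Lan-6 to 261 CPM in SK-N-AS.

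Of 14 partners of the DNA methyltransferases, TET enzymes and readers of DNA methylation, 13 were tested, while DNMT3L was not analysed here. Over the 4 levels 1 was called, MBD2 on the mesenchymal-minus-adrenergic score, where 5.87% of all genes were called. MBD2, which binds methylated DNA, rose with the mesenchymal-minus-adrenergic score by 0.52 log2 per SD (SE 0.13, adjusted p = 0.0274 by edgeR). Its level was 76.5 CPM in GI-ME-N, the highest line, and 13.3 CPM in SK-N-BE(2)C, the lowest, with SK-N-SH at 51.6 CPM. The slope rested on the lines with the highest scores. Without GI-ME-N the slope was 0.34 (adjusted p = 0.234 by edgeR), without SK-N-SH 0.48 (adjusted p = 0.0850 by edgeR), and with both left out 0.17. Fibroblast markers moved with the same score (4 of 6 called rising), and their part in it was not tested.

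Genes reported elsewhere to be repressed by EZH2 in neuroblastoma were set beside EZH2. All 5 were tested and 0 were called on any level. The correlation r with EZH2 over 12 lines was -0.26 for CASZ1 (GI-ME-N 1.30 CPM, LS 111 CPM), -0.16 for CLU (IMR5-75 3.66 CPM, Lan-6 419.7 CPM), -0.03 for NGFR (SK-N-SH 0.851 CPM, NGP 98.7 CPM) and -0.01 for RUNX3, named after its values were seen, which stayed at or below 2.69 CPM. The values in parentheses are the lowest and the highest line. Of 8 germline genes known to be silenced by promoter methylation, 5 were measured and 2 were tested, of which 0 were called. TDRD1, named after its values were seen, had 66.4 CPM in SK-N-BE(2)C and at most 0.237 CPM in any other line. The other 4 stayed at or below 0.915 CPM.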

How the data were processed

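Total RNA of 14 neuroblastoma lines was extracted (TRIzol) for 1 TruSeq library per line, per the labels' protocols. GRCh38, kallisto 0.44.0 and DESeq2 1.48.2 appear in the submitters' processing notes. Not given in the sources used here were annotation, strand setting, gene summing and filters. The estimated counts per gene deposited by the authors are whole numbers and were read as rounded estimates, a unit taken from the values. The log2 values deposited by the authors appear variance-stabilised, their settings are not stated, and they served only as an alternative.

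From the counts, CPM and log2 CPM (prior count 2) were computed in R 4.3.3 with edgeR 4.0.16 and its TMM factors. Slopes were fitted with edgeR's quasi-likelihood test over 12 lines to genes passing filterByExpr (at least 10 counts in 3 lines), leaving out the genes that make up a level. With 1 library per line, p-values measure the spread between lines, which may be partly technical. Lengths, GC content and positions came from GENCODE 29, which matched 19856 of 20049 symbols (99.0%). Length and GC content were those of each gene's longest transcript, a protein-coding one where present. As an alternative, each library's trend with GC content and length (splines with 4 degrees of freedom, 12486 genes) was removed. Promoter windows came from RefSeq (GRCh38.p14). No 2 of the 91 library pairs were identical.

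Named were all 10 members; list genes called in a fit, otherwise up to 4 with the widest range and a mean of at least 5 CPM; the 3 most similar genes of each member; and up to 3 nearest neighbours where 3 in 4 shared its direction. The members and lists were chosen with earlier results of these data known. Alternatives were DESeq2 1.42.0 size factors and test, limma 3.58.1 on the deposited log2 values, no filter, z-scores, all 14 lines, derived lines in place of their parents, single lines or the 2 farthest left out, and GI-ME-N and Lan-6 left out. The fits were tested on simulated data. The values of 1 gene of the list of genes reported to be repressed by EZH2 are not reported here.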

Additional observations from a re-analysis of the deposited data

How the results depend on the processing

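No paired analysis was possible because the labels give 1 group with 1 library per line. None of the 10 genes was called on any of the 4 levels under any alternative run. The counts of all called genes did move. On proliferation they were 317 with DESeq2, 2 with all 14 lines and 1 without GI-ME-N and Lan-6, against 0, and 0 with each line left out. On MYCN they were 3261 with DESeq2, 382 with limma on the deposited log2 values, 1276 with all 14 lines, 0 with the derived lines in place of their parents, 1442 without SK-N-SH and SK-N-AS, 169 without GI-ME-N and Lan-6, and 4 (without IMR32) to 1545 (without SK-N-AS) with single lines left out, against 632. Between these lay 6 without NGP, 8 without GI-ME-N, 14 without SK-N-SH, 27 without SK-N-DZ, 136 without NBL-S, 254 without SK-N-BE(2)C, 334 without LS and 363 without SK-N-FI. On the mesenchymal-minus-adrenergic score they were 2817 with DESeq2, 649 with the derived lines, 61 without SK-N-SH and GI-ME-N, 566 without GI-ME-N and Lan-6, and 482 (without GI-ME-N; 517 without SK-N-SH) to 1669 (without Lan-6) with single lines left out, against 1068. On antigen presentation they were 1056 with DESeq2, 14 without the filter, 27 with all 14 lines, 22 without GI-ME-N and Lan-6, and 0 to 12 (without GI-ME-N) with single lines left out, against 0.

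The UHRF1 slope on the mesenchymal-minus-adrenergic score turned to -0.089 without SK-N-SH and GI-ME-N and to -0.17 without GI-ME-N and Lan-6, and ran from -0.14 to 0.49 with single lines left out. The EZH2 slope on antigen presentation, 0.08, ran from -0.0018 (without NBL-S) to 0.17. Relative to the 14-line median, SUZ12 in Lan-6 was at -0.71 log2 with the composition trend removed and -1.04 summed with SUZ12P1, and KDM6B in GI-ME-N at -1.76 with no scaling beyond totals and -0.44 with the trend removed. DNMT1 in Lan-6 was at 0.14 in the deposited log2 values. The r of EED with its neighbours was 0.69 at 5 Mb and 0.84 over neighbours with a mean of at least 1 CPM. The sum with SUZ12P1 and the last choice were made after seeing the data, as was removing the trend from the neighbours. Beyond removal of lines or the alternative's own construction, the cause was not tested. With no scaling beyond totals, the median of all genes moved by -0.56 log2 in GI-ME-N, -0.28 in Lan-6 and -0.24 in SK-N-SH. No level has a replicate, and counting error is widest for the lowest counts, which were 243 of DNMT3B in Lan-6, 314 of DNMT3B in GI-ME-N and 325 of EED in Lan-6.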
